A study of Mus musculus with 12 samples.

Results

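The OxLDL response of RAW 264.7 macrophages of the line labelled sh-PHLPP1 was measured by sequencing bulk RNA. The comparison used 6 of the 12 libraries of the series, chosen by their labels alone: 3 from cells kept for 24 h with 100 µg/ml of OxLDL, which is oxidised low-density lipoprotein, and 3 from cells of the same line left untreated. RAW 264.7 is a macrophage line of BALB/c origin. The line labelled sh-PHLPP1 had been nucleofected with a short hairpin RNA against PHLPP1 and selected with puromycin, and it is 1 stable line. Within each group the replicates 1, 2 and 3 were cultures at passages 9, 10 and 11. The other 6 libraries came from 1 stable line made and treated in the same way with a hairpin against luciferase (sh-Luc), 3 untreated and 3 with OxLDL, and served for comparison and for the estimate of spread. A p-value given here thus reflects how much passages of the same line vary, and says nothing of how much separately made lines would. By its title, the series concerns PHLPP1 and, by way of AMPK and ChREBP, the uptake of lipid and the synthesis of fatty acids.

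Macrophages take up OxLDL through scavenger receptors such as CD36 and MSR1, esterify its cholesterol, store it in lipid droplets and can become foam cells, the lipid-laden cells of atherosclerotic plaques. Oxidised lipids and their cargo are also known to act on the NF-kB pathway, which drives chemokine and cytokine genes, on the sterol regulators LXR and SREBP, and on NRF2, which drives genes of antioxidant defence. PHLPP1 is a phosphatase that removes a regulatory phosphate from AKT and from other kinases.

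Values of a gene are given in the order of replicates 1, 2 and 3, in CPM (counts scaled to a common library total, here with TMM factors that correct for a few very abundant RNAs). The number after a log2 fold change is its approximate standard error, and adjusted p-values come from edgeR's quasi-likelihood test with Benjamini-Hochberg adjustment over all 13121 genes tested. A gene was called where that adjusted p was under 0.05.

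The 6 libraries held 16974037 to 26562748 counts. Of 13 macrophage markers, such as Csf1r, Itgam and Lyz2, all were measured, and they summed to 10887 to 12055 CPM untreated and 14331 to 15823 CPM after OxLDL. The epithelial markers were at 0 CPM and those of T cells, B cells and mast cells summed to at most 0.444 CPM. Libraries of this line stood apart from their group in 2 cases. Untreated replicate 1 correlated at 0.967 and 0.966 with replicates 2 and 3 in log2 CPM across genes, which correlated at 0.995 with each other. OxLDL replicate 3 correlated at 0.984 and 0.987 with the others, against 0.993. Where leaving out either of them changed a named gene's call or moved its fold by over 1.5 times, the value without it is given.

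The hairpin's target is Phlpp1 (ENSMUSG00000044340, on chromosome 1, 106171752 to 106394250 of GRCm38). Without OxLDL its level was 17.3, 14.6 and 14.03 CPM in this line, against 12.4, 14.4 and 13.3 CPM in sh-Luc. The label was thus not borne out by a lower level than in the controls, and the line is called by its label for that reason. After OxLDL, Phlpp1 was at 8.65, 8.35 and 7.40 CPM in the line labelled sh-PHLPP1, a fall of 1.88-fold (log2 fold change -0.91 ± 0.14, adjusted p = 0.000153). All 3 treated libraries lay below all 3 untreated ones. In sh-Luc the level after OxLDL was 11.4, 13.5 and 11.4 CPM, and the change was not called (-0.14 ± 0.13, adjusted p = 0.534). The difference between the lines in this response was called (-0.77 ± 0.19, adjusted p = 0.0133). Phlpp2, the related phosphatase, went from 10.2, 11.5 and 10.2 to 7.03, 6.57 and 4.15 CPM in the line labelled sh-PHLPP1, with no overlap between the groups (-0.84 ± 0.19, adjusted p = 0.00246).

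OxLDL changed a large part of the measured transcriptome of this line. Of 13121 genes tested, 7169 were called, which is 54.6%: 3441 rose (26.2%) and 3728 fell (28.4%). The values of the treated and untreated libraries did not overlap in 59.9% of the genes. At least 2-fold changes numbered 1403 higher and 1470 lower, at least 8-fold changes 236 and 88, and at least 32-fold changes 95 and 8. Small changes were thus shared evenly between the directions, while the largest ones were mostly rises. The split depends on the scaling: with library size alone 1572 genes rose and 6381 fell, and the median over all genes moved from -0.03 to -0.46 (log2). The 20 most abundant genes held 19.99 to 22.8% of the counts after OxLDL against 9.09 to 10.6% before, and Spp1 alone held 4.53 to 6.36% against 1.13 to 2.09%. The counts of each gene list below are to be read against the 26.2% and 28.4% of all genes.

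**Figure D1:**
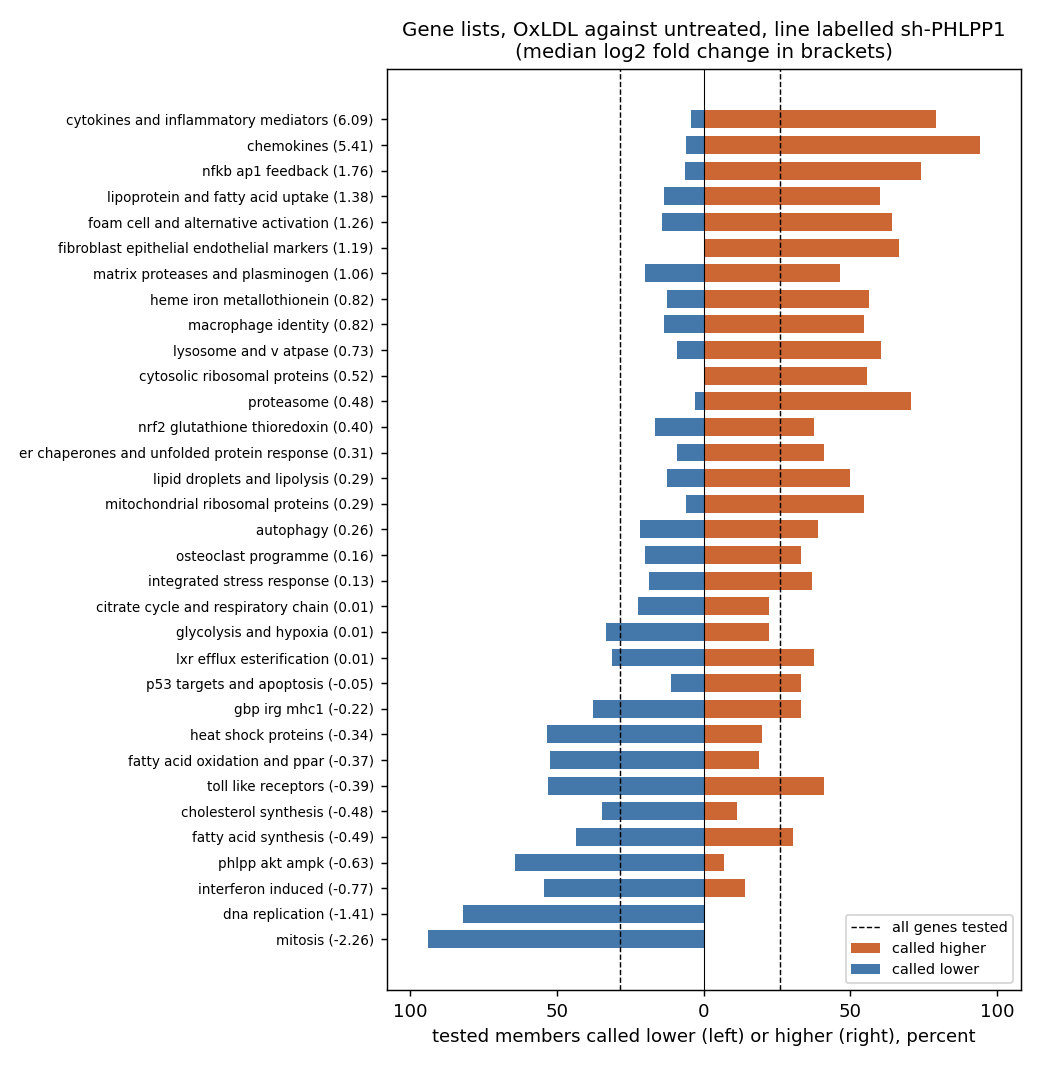
Percent of the tested members of each gene list (5 tested members or more) called lower (left, blue) or higher (right, orange) after OxLDL in the line labelled sh-PHLPP1, with the list's median log2 fold change in brackets and dashed lines at the shares of all genes tested (26.2% higher, 28.4% lower). Chemokines and cytokines extend farthest to the right, with 16 of 17 and 19 of 24 members called higher, and mitosis and DNA replication farthest to the left, with 30 of 32 and 27 of 33 called lower.

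Secreted signals of inflammation rose most. Of 21 genes listed as chemokines and their decoy or scavenging receptors, 17 were tested, 16 rose and 1 fell, with a median log2 fold change of 5.41 against -0.03 for all genes. Cytokines and mediators, of which 24 of 26 were tested, had 19 members higher, 1 lower and 4 not called, with a median of 6.09, or 5.78 where the member without any count in the untreated libraries is set at its lower bound. As a share of all counts, the chemokine list went from 0.0881 to 0.124% in the untreated libraries to 2.97 to 4.02% after OxLDL. The cytokine list went from 0.0629 to 0.0672% to 2.75 to 3.12%.

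Csf3, which encodes the granulocyte growth factor G-CSF, stood at 4.86, 3.63 and 4.99 CPM untreated and at 5300.0, 5879.8 and 7648 CPM after OxLDL. Every treated library was far above every untreated one, 1400.0-fold on average (10.45 ± 0.41, adjusted p = 3.58e-09). The other colony-stimulating factor among the largest rises, Csf2 (GM-CSF), went from 0.0458, 0.599 and 0.396 to 71.7, 85.4 and 104 CPM (7.85 ± 0.47, adjusted p = 1.01e-07, or 8.50 without untreated replicate 2). Cxcl2, a chemokine that attracts neutrophils, was already measurable without OxLDL, at 80.1, 37.4 and 50.8 CPM, and reached 16819, 17282 and 23695 CPM (8.42 ± 0.34, adjusted p = 3.58e-09). Its treated libraries were close to each other, with replicate 3 the highest. Ccl2, the main attractant of monocytes, went from 2.11, 1.40 and 1.07 to 388, 423 and 531 CPM (8.21 ± 0.33, adjusted p = 3.77e-09), again without overlap. Ccl3 (46.6-fold), Ccl5 (145-fold), Ccl9 (6.97-fold) and Cxcl10 (42.5-fold), all ligands of leukocyte receptors, rose too, as did Ccrl2, a receptor that binds chemoattractants (32.7-fold). The log2 fold change of Cxcl10 was 5.41 over the 6 libraries and 6.27 without untreated replicate 1.

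Il6 was near the limit of detection in untreated cells, at 0.0458, 0.133 and 0.0793 CPM, and stood at 47.04, 45.7 and 68.99 CPM after OxLDL (9.13 ± 0.31, adjusted p = 8.70e-10). Il1b showed the same order, from 0.321, 0.0333 and 0.159 to 28.05, 27.4 and 34.3 CPM (7.51 ± 0.34, adjusted p = 9.67e-09, or 8.26 without untreated replicate 1). For both interleukins the treated libraries were all above the untreated ones. Tnf, expressed at 117, 55.1 and 62.1 CPM without OxLDL with untreated replicate 1 the highest, reached 3128, 3403 and 4579 CPM (5.57 ± 0.38, adjusted p = 3.17e-07). Lif, a cytokine of the interleukin 6 family, went from 1.51, 0.832 and 1.51 to 637, 643 and 515 CPM (8.88 ± 0.44, adjusted p = 2.00e-08).

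Genes of enzymes that make inflammatory mediators rose, to levels that differed widely. Ptgs2, which encodes the prostaglandin-forming enzyme COX-2, went from 41.2, 47.5 and 46.6 CPM to 14507, 14072 and 18844 CPM (8.45 ± 0.56, adjusted p = 2.13e-07). Its partner in prostaglandin E2 synthesis, Ptges, went from 1.28, 1.20 and 1.78 to 110.0, 104 and 95.7 CPM (6.18 ± 0.18, adjusted p = 3.30e-10). Both enzymes were thus higher in all 3 treated libraries than in the untreated ones. Nos2, the inducible nitric oxide synthase, went from 4.31, 3.13 and 3.80 to 305, 307 and 262 CPM (6.29 ± 0.19, adjusted p = 3.30e-10). Acod1, the mitochondrial enzyme that makes itaconate, went from 12.4, 10.3 and 10.9 to 3355, 3522 and 3177 CPM (8.22 ± 0.20, adjusted p = 8.87e-11).

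Some of the largest rises began from almost no counts, so their size is loosely bound. Cxcl3 had 1 count in the untreated libraries together and 819 after OxLDL, a ratio of 1397 with a 95% counting interval of 250.1 to 55262. Ccl7 had 2 and 1071 counts, a ratio of 914 (252 to 7554), and Cstdc4, of the cystatin family of protease inhibitors, had 3 and 641 counts, a ratio of 365 (124 to 1772). Cstdc4 has close relatives in the genome, which makes its count less certain. Urah, an enzyme of uric acid breakdown, stood at 0, 0 and 0.238 CPM and then at 70.8, 70.01 and 69.3 CPM, and Marcks, an actin-binding substrate of protein kinase C, went from 0.0458, 0.133 and 0.0793 to 95.97, 97.7 and 104 CPM (10.01 ± 0.33, adjusted p = 7.14e-10). Serpinb2, an inhibitor of plasminogen activators, went from 0.229, 0.166 and 0.317 to 117, 128 and 162 CPM (9.14 ± 0.36, adjusted p = 3.58e-09). Lcn2, which binds the iron carriers of bacteria, went from 1.51, 1.80 and 2.14 to 1338, 1323 and 1818 CPM (9.67 ± 0.21, adjusted p = 3.33e-11). In each of these genes the groups did not overlap.

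**Figure D2:**
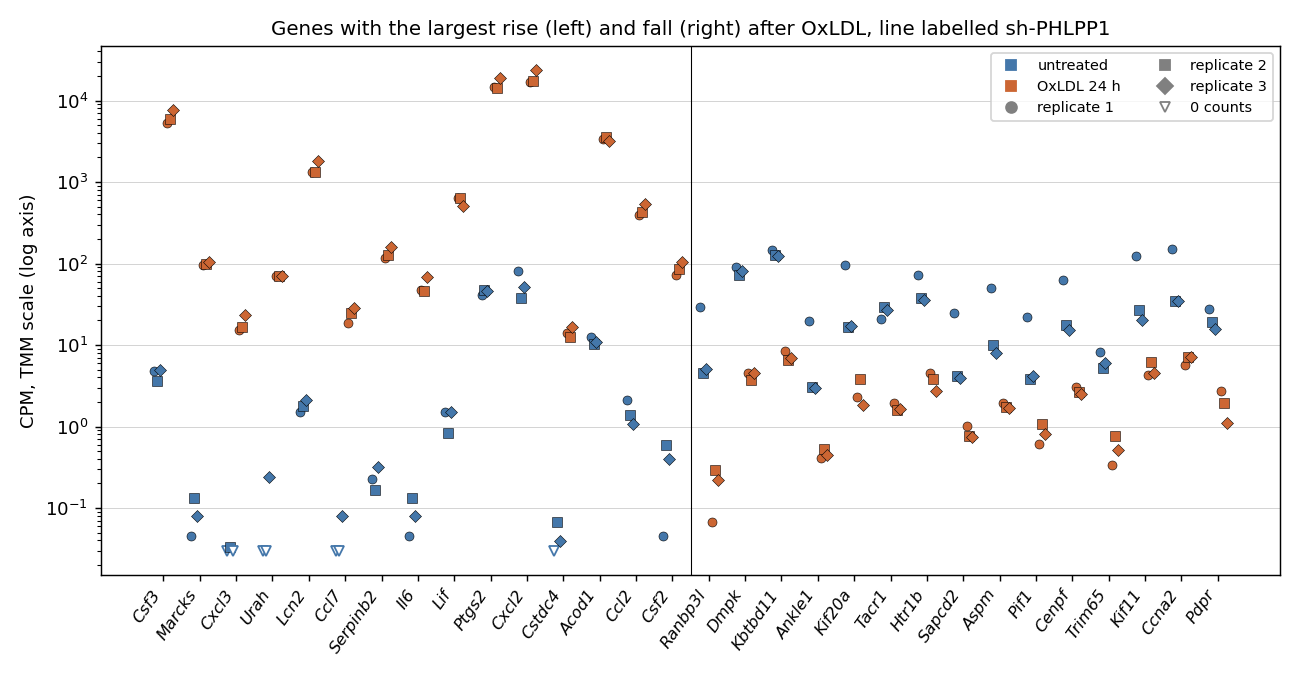
CPM on the TMM scale (log axis) of the 15 genes with the largest rise (left) and the 15 with the largest fall (right) after OxLDL in the line labelled sh-PHLPP1, for each of the 3 untreated (blue) and 3 treated (orange) libraries, with a symbol shape for each replicate and open triangles for libraries with 0 counts. On the left the treated libraries lie together and far above the untreated ones, as Cxcl2 does at 16819 to 23695 CPM against 37.4 to 80.1 CPM. On the right untreated replicate 1 often lies above replicates 2 and 3, as in Kif20a at 95.9 CPM against 16.8 and 16.9 CPM.

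Genes of the NF-kB and AP-1 pathways, among them their feedback inhibitors, followed the secreted signals. All 31 were tested, of which 23 rose, 2 fell and 6 were not called (median 1.76). Nfkbia, which encodes the inhibitor IkB alpha, went from 132, 98.2 and 97.9 to 1089, 1188 and 1578 CPM (3.56 ± 0.21, adjusted p = 8.78e-08). Nfkbiz, a nuclear cofactor needed for Il6, rose 31.3-fold, Dusp5, a phosphatase acting on ERK kinases, 30.3-fold and the NF-kB subunit gene Nfkb2 4.43-fold. Tnip1 and Nfkbib, further inhibitors, rose 3.39-fold and 3.73-fold. The Nfkbib count may hold reads of Sirt2, whose exons overlap it on the other strand, since whether the counting used strand is not given in the sources used.

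The windows of 250 bases before the RefSeq transcription start were searched for letters of the NF-kB site, GGGNNNTTCC on either strand (N is any base), to show where the induced genes carry them. Among tested genes with a window, 577 of 9324 held a match (6.19%), and over all 32851 windows 4.65% did. Of the 11 tested chemokine genes with a window 4 held a match (36.4%), namely Ccl9, Cxcl10, Cxcl2 and Cxcl3, and of the 16 cytokine genes 3 did (18.8%), namely Csf1, Il1rn and Il6 (Csf1 and Il1rn are named for their windows only). The interferon-induced list described below, in which more genes fell than rose, held a match in 5 of 25 genes (20%). The mitosis list held one in 1 of 24 (4.17%). A match is a run of letters and not a measured binding site. Shown are the windows of 3 genes of the largest rises, from the RefSeq table of build GRCm38.p6, each on the strand of its gene and read 5′ to 3′, with the matches in capitals: Cxcl2 (chr5:90903649-90903898, plus strand), Cxcl3 (chr5:90785851-90786100, plus strand) and Il6 (chr5:30012864-30013113, plus strand).
Cxcl2: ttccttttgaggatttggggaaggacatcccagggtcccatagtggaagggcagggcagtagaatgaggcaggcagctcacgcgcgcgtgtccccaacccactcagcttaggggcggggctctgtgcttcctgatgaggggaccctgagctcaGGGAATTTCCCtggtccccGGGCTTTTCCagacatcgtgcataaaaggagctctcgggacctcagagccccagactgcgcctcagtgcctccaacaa
Cxcl3: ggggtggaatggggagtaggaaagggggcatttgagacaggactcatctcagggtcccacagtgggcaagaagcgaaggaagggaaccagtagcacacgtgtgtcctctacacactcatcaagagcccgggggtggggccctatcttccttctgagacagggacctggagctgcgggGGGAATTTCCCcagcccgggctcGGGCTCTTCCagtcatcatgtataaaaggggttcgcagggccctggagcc
Il6: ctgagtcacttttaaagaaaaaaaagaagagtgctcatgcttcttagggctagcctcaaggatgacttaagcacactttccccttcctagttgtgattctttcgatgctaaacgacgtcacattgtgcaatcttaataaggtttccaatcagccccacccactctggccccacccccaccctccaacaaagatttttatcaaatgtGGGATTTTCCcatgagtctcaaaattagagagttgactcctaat
In Cxcl2 a run of 11 letters holds overlapping matches on both strands, starting 97 and 96 bases before the start site, and a further match starts at 78 bases. Cxcl3 has the same order of matches, at 73, 72 and 50 bases, and Il6 has 1, at 44 bases.

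Interferon-induced genes split. Of 35 tested of 36, 5 rose, 19 fell and 11 were not called, with a median of -0.77. The 5 that rose include Ifit1 and Rsad2, which restrict viral RNA and viral replication. Ifit1 went from 16.9, 17.2 and 17.6 to 85.2, 77.7 and 94.4 CPM (2.31 ± 0.19, adjusted p = 1.11e-06) and Rsad2 from 31.1, 29.3 and 28.2 to 262, 221 and 269 CPM (3.08 ± 0.20, adjusted p = 1.51e-07). Oasl1, of the oligoadenylate synthetase family, rose 6.91-fold. All treated libraries were above the untreated ones in these genes. Others of the same list went the other way: Oas3, another oligoadenylate synthetase, from 407, 390.0 and 375 to 135, 117 and 109 CPM (-1.70 ± 0.14, adjusted p = 1.15e-06) and Ifi44l 9.53-fold down. In Oas3 every treated library lay below every untreated one. Irf7, a regulator of interferon genes, overlapped between the groups (322, 392 and 426 and 393, 347 and 444 CPM, 0.05 ± 0.26, adjusted p = 0.873), and its exons overlap those of Phrf1 on the other strand.

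The letters of the interferon-stimulated response element, GAAANNGAAA on either strand, were found before 318 of 9324 tested genes (3.41%), in 2.98% of all windows, and before 10 of 25 genes of this list (40%). Genes with a match stood on both sides: Ifit1 and Rsad2, which rose, and Oas3, which fell, all carry one. Their windows are shown for that contrast, with matches in capitals: Ifit1 (chr19:34640639-34640888, plus strand), Rsad2 (chr12:26456453-26456702, minus strand) and Oas3 (chr5:120777660-120777909, minus strand), from RefSeq, GRCm38.p6.
Ifit1: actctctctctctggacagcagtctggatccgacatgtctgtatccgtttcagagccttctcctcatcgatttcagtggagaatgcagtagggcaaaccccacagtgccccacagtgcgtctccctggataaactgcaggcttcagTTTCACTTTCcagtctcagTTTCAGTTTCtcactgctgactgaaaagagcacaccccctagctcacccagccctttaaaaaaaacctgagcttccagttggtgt
Rsad2: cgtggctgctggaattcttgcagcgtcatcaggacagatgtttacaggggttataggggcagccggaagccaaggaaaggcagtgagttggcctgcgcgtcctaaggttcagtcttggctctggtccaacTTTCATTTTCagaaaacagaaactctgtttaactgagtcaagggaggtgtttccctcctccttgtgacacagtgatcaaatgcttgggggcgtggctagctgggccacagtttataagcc
Oas3: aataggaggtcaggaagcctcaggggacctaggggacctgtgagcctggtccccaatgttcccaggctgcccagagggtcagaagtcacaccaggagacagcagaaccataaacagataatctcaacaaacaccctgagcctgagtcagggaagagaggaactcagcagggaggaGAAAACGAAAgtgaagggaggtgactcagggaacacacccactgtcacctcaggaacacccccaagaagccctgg
Ifit1 has matches starting 104 and 85 bases before the start site, Rsad2 at 120 and Oas3 at 75 bases. In Ifit1 and Rsad2 the letters read on the opposite strand.

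Genes of guanylate-binding proteins, immunity-related GTPases and class I antigen presentation were tested for 24 of 28 members, of which 8 rose and 9 fell (median -0.22). GTPase genes that act on vacuoles of intracellular pathogens fell: Irgm1 3.12-fold (-1.64 ± 0.16, adjusted p = 5.04e-06), Irgm2 4.83-fold, Igtp 2.50-fold and Iigp1 8.10-fold, the last at 0.962, 1.07 and 1.31 CPM before OxLDL. Gbp9 fell 3.29-fold. H2-D1, a class I heavy chain, went from 1423, 1598 and 1569 to 2733, 2990.1 and 4038 CPM (1.09 ± 0.18, adjusted p = 0.000273). Irgm2 and Igtp share exon bases on 1 strand, as do Gbp9 and Gbp8, so reads could be split between them.

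Among toll-like receptors and their adaptors (17 of 18 tested) 7 rose and 9 fell. Tlr4, the receptor of endotoxin, went from 96.2, 57.7 and 54.1 to 30.1, 27.6 and 26.5 CPM (-1.30 ± 0.21, adjusted p = 0.000275), Tlr3 fell 2.41-fold and Tlr13 1.82-fold, both receptors of nucleic acids. Ly96, which encodes the coreceptor MD-2 of TLR4, rose 2.16-fold and Irak3, an inhibitor of the pathway, 4.40-fold, while the adaptor gene Myd88 fell 1.61-fold. Exons of Irak3 overlap Tmbim4 and those of Myd88 overlap Acaa1a on the other strand.

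Genes of the cell division cycle fell as a group. All 32 mitosis genes were tested, and 30 fell, none rose and 2 were not called, with a median of -2.26. Of 33 DNA replication genes 27 fell, none rose and 6 were not called (median -1.41). With bulk RNA, fewer dividing cells and less of these RNAs per dividing cell cannot be told apart. The untreated libraries differed among themselves here: the mean log2 CPM of the mitosis list was 6.72, 4.92 and 4.90 untreated and 3.46, 3.67 and 3.56 after OxLDL, and that of DNA replication was 6.40, 5.14 and 5.10 and 4.12, 4.34 and 4.27. Untreated replicate 1 was thus the highest library of this line in both lists, and replicates 2 and 3 were still above all treated ones. Untreated sh-Luc stood at 6.76, 6.81 and 6.68 in mitosis and at 6.49, 6.74 and 6.47 in DNA replication. Replicate 1 was thus near the untreated sh-Luc libraries, and replicates 2 and 3 were well below them. Which of these levels is typical of the untreated line was not tested. Between libraries of the same number (passages 9, 10 and 11) the median log2 ratio of the mitosis list was -3.30, -1.41 and -1.40. The numbers were not used as pairs, and the first ratio holds the high untreated replicate 1. Without untreated replicate 1 the list had 29 members lower with a median of -1.46, and DNA replication had 23 lower and 1 higher with a median of -0.86.

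Mki67, a marker of cycling cells, went from 142, 53.6 and 64.8 to 22.4, 24.8 and 20.7 CPM (-1.94 ± 0.40, adjusted p = 0.00138). Kif11, a motor that separates the spindle poles, went from 124, 27.03 and 20.5 to 4.26, 6.22 and 4.52 CPM (-3.50 ± 0.57, adjusted p = 0.000290, or -2.25 without untreated replicate 1). In both genes untreated replicate 1 was the highest and the groups did not overlap. Ccna2, the cyclin of DNA synthesis and entry into mitosis, fell 10.98-fold, Ccnb2, a cyclin of mitosis, 5.52-fold, the transcription factor gene Foxm1 7.35-fold, the kinetochore gene Cenpf 11.6-fold and the kinase gene Aurka 5.70-fold. Prc1, which bundles spindle microtubules, fell 7.58-fold. Without untreated replicate 1 the log2 fold changes of 5 of these genes were smaller in size: Ccna2 moved from -3.46 to -2.40, Foxm1 from -2.88 to -2.14, Cenpf from -3.54 to -2.60, Aurka from -2.51 to -1.71 and Prc1 from -2.92 to -2.01. All 5 were still called lower. Among replication genes, Mcm6 went from 269, 94.1 and 89.2 to 16.3, 18.01 and 15.1 CPM (-3.19 ± 0.36, adjusted p = 1.75e-05, or -2.48 without that library) and Mcm5 from 315, 114 and 116 to 39.3, 44.96 and 33.9 CPM (-2.20 ± 0.33, adjusted p = 0.000159, or -1.56), both subunits of the replicative helicase. Cdc6, which loads it, fell 4.65-fold, Rrm2, a subunit of ribonucleotide reductase, 4.28-fold and Uhrf1, which maintains DNA methylation, 5.76-fold. Without that library the log2 fold change moved from -2.10 to -1.37 for Rrm2 and from -2.53 to -1.66 for Uhrf1. Ccne2, a cyclin of entry into S phase, went from 21.6, 18.1 and 14.1 to 1.62, 1.60 and 1.999 CPM (-3.37 ± 0.33, adjusted p = 5.85e-06), here without a high untreated replicate 1. Exons on the other strand overlap Ccna2 (Exosc9), Ccne2 (Ints8), Kif20a (Cdc23) and Prc1 (Rccd1).

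**Figure D3:**
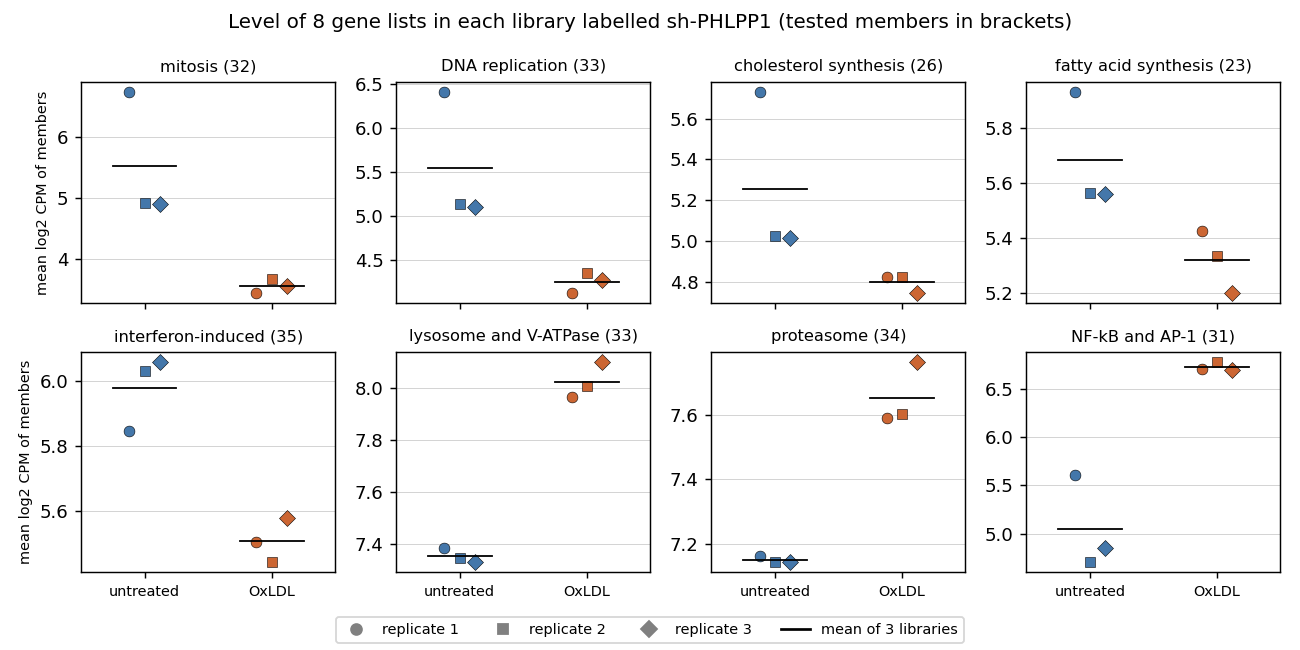
Mean log2 CPM of the tested members of 8 gene lists (number in brackets) in each library labelled sh-PHLPP1, untreated (blue) and after OxLDL (orange), with a symbol shape for each replicate and a bar for the mean of 3 libraries. Untreated replicate 1 stands above replicates 2 and 3 in mitosis, DNA replication, cholesterol synthesis, fatty acid synthesis and the NF-kB list, while the lysosome and proteasome lists show close untreated libraries, at 7.33 to 7.38 and 7.14 to 7.16, below all treated ones.

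Several of the largest falls outside the mitosis list were also genes of dividing cells, and the rest were of other kinds. Kif20a, a kinesin of cell separation, went from 95.9, 16.8 and 16.9 to 2.30, 3.85 and 1.85 CPM (-3.99 ± 0.64, adjusted p = 0.000252, or -2.64 without untreated replicate 1). Aspm, of the spindle poles, fell 12.6-fold (-2.33 on the log2 scale without that library), the helicase gene Pif1 11.8-fold (-2.24), the nuclease gene Ankle1 18.01-fold (-2.69) and Sapcd2 12.9-fold (-2.27). Ranbp3l showed the lowest ratio, from 28.9, 4.49 and 5.03 to 0.0676, 0.296 and 0.222 CPM (-5.96 ± 0.99, adjusted p = 0.000324, or -4.55 without untreated replicate 1). Dmpk, the kinase gene of myotonic dystrophy, did not depend on that library in this way: it stood at 91.04, 72.7 and 79.9 CPM and then at 4.53, 3.67 and 4.59 CPM (-4.25 ± 0.29, adjusted p = 3.11e-07). Kbtbd11 went from 148, 126 and 125 to 8.38, 6.46 and 6.96 CPM (-4.19 ± 0.17, adjusted p = 3.58e-09). Genes of transmitter receptors fell too, Tacr1 (substance P) 14.96-fold and Htr1b (serotonin) 13.1-fold. Trim65, a ubiquitin ligase whose exons overlap Trim47 on the same strand, fell 11.5-fold, and Pdpr, a regulator of pyruvate dehydrogenase, 10.7-fold.

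The cell cycle homology region, a short element known from genes of late cell cycle, was searched as TTTGAA on either strand. These letters are common: 1222 of 9324 tested genes (13.1%) and 16% of all windows held them. Of the 24 mitosis genes with a window 11 did (45.8%). The windows of Ccnb2, Cdc20 and Kif11, genes that fell, are shown, Cdc20 being chosen after its values were seen, from RefSeq, GRCm38.p6, with the match in capitals: Ccnb2 (chr9:70421555-70421804, minus strand), Cdc20 (chr4:118437344-118437593, minus strand) and Kif11 (chr19:37376132-37376381, plus strand).
Ccnb2: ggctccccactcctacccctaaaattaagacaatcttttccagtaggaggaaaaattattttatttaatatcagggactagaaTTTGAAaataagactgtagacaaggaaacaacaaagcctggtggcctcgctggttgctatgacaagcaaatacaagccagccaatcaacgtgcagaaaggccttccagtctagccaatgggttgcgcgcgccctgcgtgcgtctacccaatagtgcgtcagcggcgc
Cdc20: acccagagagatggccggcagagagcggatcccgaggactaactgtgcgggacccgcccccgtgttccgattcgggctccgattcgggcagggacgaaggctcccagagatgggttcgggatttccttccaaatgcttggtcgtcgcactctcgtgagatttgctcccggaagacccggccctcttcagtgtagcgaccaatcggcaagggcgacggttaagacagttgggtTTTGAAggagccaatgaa
Kif11: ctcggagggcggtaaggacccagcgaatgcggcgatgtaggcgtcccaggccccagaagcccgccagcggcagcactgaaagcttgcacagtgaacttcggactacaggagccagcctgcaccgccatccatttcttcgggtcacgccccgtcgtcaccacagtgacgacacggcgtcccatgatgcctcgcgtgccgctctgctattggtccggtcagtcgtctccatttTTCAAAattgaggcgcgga
The match lies 18 bases before the start in Cdc20 and 19 bases before it in Kif11, and 167 bases before it in Ccnb2. The motifs searched can share letters with each other, and each was counted by itself.

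Many receptors and carriers that bring lipid into the cell rose. Of 18 genes of lipoprotein and fatty acid uptake 15 were tested, of which 9 rose, 2 fell and 4 were not called (median 1.38). Cd36, the scavenger receptor and fatty acid carrier, stood at 26.4, 20.6 and 17.6 CPM untreated and at 315, 285 and 278 CPM after OxLDL. The treated libraries all lay above the untreated ones, 13.6-fold on average (3.77 ± 0.27, adjusted p = 4.33e-07). Msr1, the class A scavenger receptor, went from 203, 203 and 190.1 to 853, 832 and 1067 CPM (2.21 ± 0.15, adjusted p = 3.34e-07). The fatty acid binding protein genes Fabp4 and Fabp5 were low before OxLDL: Fabp4 went from 0.412, 0.433 and 0.357 to 42.7, 52.8 and 74.1 CPM (7.12 ± 0.35, adjusted p = 1.91e-08) and Fabp5 from 21.4, 6.16 and 7.05 to 125, 133 and 202 CPM (3.74 ± 0.45, adjusted p = 3.07e-05, or 4.53 without untreated replicate 1). Replicate 3 was the highest treated library for both. Cxcl16, which is both a chemokine and a receptor of OxLDL, rose 3.18-fold and Stab1, a scavenger receptor of low level here, 4.95-fold. Stab1 exons overlap those of Nt5dc2 on the other strand.

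Lipid storage genes rose in part. In the droplet and lipolysis list 8 of 16 genes were tested, with 4 higher and 1 lower. Plin2, the coat protein of lipid droplets, went from 245, 279 and 306 to 2099, 1955 and 1696 CPM (2.79 ± 0.15, adjusted p = 3.40e-08). Hilpda, a droplet protein that inhibits lipolysis, went from 11.6, 8.72 and 9.47 to 261, 271 and 315 CPM (4.83 ± 0.21, adjusted p = 9.14e-09). The treated libraries of both genes formed a tight group above the untreated ones. Lipe, the hormone-sensitive lipase, fell 1.70-fold (-0.76 ± 0.15, adjusted p = 0.00115), and Pnpla2, the lipase that starts triglyceride breakdown, was not called over the 6 libraries (-0.35 ± 0.18, adjusted p = 0.115) but was called lower without untreated replicate 1 (-0.56, adjusted p = 0.00166). Abhd5, an activator of that lipase, rose 1.40-fold, and the small rise of Plin3 (0.30 ± 0.10, adjusted p = 0.0198) was lost in several of the alternatives given below.

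Cholesterol export and esterification went in different directions within their list, of which 16 of 18 were tested, 6 rose and 5 fell (median 0.01). The lower count was 3, 3 and 3 without OxLDL replicate 1, 2 or 3. The exporters fell: Abca1 went from 44.7, 19.2 and 20.2 to 10.5, 8.41 and 6.44 CPM (-1.73 ± 0.36, adjusted p = 0.00153) and Abcg1 from 407, 217 and 222 to 73.1, 60.9 and 56.6 CPM (-2.15 ± 0.34, adjusted p = 0.000254). All treated libraries were below the untreated ones, with untreated replicate 1 the highest. Soat1, which esterifies cholesterol for storage, went from 322, 233 and 217 to 579, 556 and 600.0 CPM (1.17 ± 0.21, adjusted p = 0.000570). Npc2, which hands cholesterol out of the lysosome, rose 1.49-fold and Lpcat3, an acyltransferase of membrane lipids, 1.63-fold, the latter overlapping Emg1 on the other strand. Pltp, the phospholipid transfer protein, fell 2.50-fold, but its exons overlap those of the far more abundant Ctsa.

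Of 27 cholesterol synthesis genes 26 were tested, of which 3 rose, 9 fell and 14 were not called (median -0.48). The mean log2 CPM of the list was 5.73, 5.02 and 5.01 untreated and 4.82, 4.82 and 4.75 after OxLDL, so that untreated replicate 1 stood apart, and without it the median was -0.10, with 8 members lower. Untreated sh-Luc stood at 5.99, 5.88 and 5.96, closer to replicate 1 than to replicates 2 and 3. Idi1, an isomerase that prepares the building blocks of sterols, went from 16.6, 8.72 and 6.97 to 3.38, 2.72 and 1.92 CPM (-1.995 ± 0.31, adjusted p = 0.000208). Its treated libraries all lay below the untreated ones, of which replicate 1 was the highest. Mvd (1.87-fold) and Hmgcs1 (1.65-fold), enzymes of the mevalonate part of the pathway, fell, and Sc5d, a late desaturase (1.69-fold), and Insig2, which holds back SREBP (1.46-fold), rose. Srebf2, the master regulator of the pathway, overlapped between the groups (-0.47 ± 0.29, adjusted p = 0.180).

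Fatty acid synthesis, the subject of the series title, held 23 tested genes of 24, of which 7 rose and 10 fell (median -0.49). Fasn, Acaca, Scd2 and Elovl5 were among those that fell. Fasn, fatty acid synthase, went from 488, 191 and 212 to 57.7, 66.4 and 47.4 CPM (-2.38 ± 0.31, adjusted p = 5.22e-05, or -1.83 without untreated replicate 1). Acaca, acetyl-CoA carboxylase, went from 48.4, 32.6 and 34.3 to 23.3, 23.2 and 19.1 CPM (-0.81 ± 0.15, adjusted p = 0.000681) and Scd2, which desaturates fatty acids, from 835, 411 and 413 to 161, 165 and 179.6 CPM (-1.71 ± 0.32, adjusted p = 0.000724). In all 3 genes the treated libraries lay below the untreated ones and untreated replicate 1 was the highest. The elongase gene Elovl5 fell 2.10-fold. Genes of fatty acid activation and of glycerolipid assembly were among those that rose: Acsl4 2.04-fold, Agpat1 1.64-fold and Lpin2 1.65-fold.

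Srebf1, the regulator of fatty acid synthesis genes, was at 421, 127 and 128 CPM and then at 105, 119 and 113 CPM. Replicates 2 and 3 of the untreated group lay only slightly above the treated range, and the call at the threshold (-1.004 ± 0.39, adjusted p = 0.0445) was lost without untreated replicate 1 (-0.20, adjusted p = 0.429). It was also lost without OxLDL replicate 3 (-1.02, adjusted p = 0.106). Its exons overlap Rai1 on the other strand. Mlxipl, which encodes ChREBP, had 2 counts over the 12 libraries and was not tested. Mlx, the binding partner of ChREBP, went from 38.6, 35.5 and 39.8 to 82.6, 83.99 and 82.8 CPM (1.13 ± 0.10, adjusted p = 2.05e-06), and its exons overlap Psmc3ip on the other strand.

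Fatty acid oxidation and PPAR target genes (21 of 24 tested) had 4 members higher and 11 lower (median -0.37). Cpt1a, which admits fatty acids to mitochondria, went from 33.03, 42.5 and 46.4 to 16.2, 13.4 and 12.4 CPM (-1.53 ± 0.18, adjusted p = 2.63e-05). Hadh fell 2.67-fold, Acadm 2.40-fold and Cpt2 1.53-fold, all enzymes of oxidation in mitochondria, and Angptl4, an inhibitor of lipoprotein lipase, fell 6.39-fold. Acadl, another acyl-CoA dehydrogenase, rose 1.78-fold. No group overlapped in these 6 genes.

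**Figure D4:**
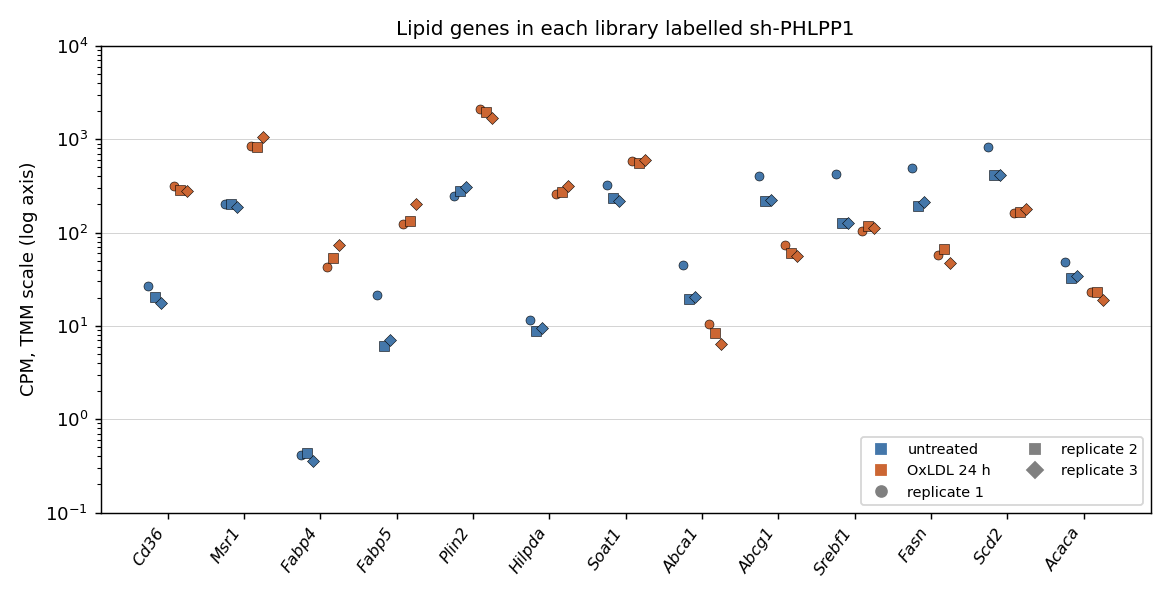
CPM on the TMM scale (log axis) of 13 lipid genes in each library labelled sh-PHLPP1, untreated (blue) and after OxLDL (orange), with a symbol shape for each replicate. Cd36, Msr1, Fabp4, Fabp5, Plin2, Hilpda and Soat1 lie higher in all treated libraries, and Abca1, Abcg1, Fasn, Scd2 and Acaca lower. For Srebf1 untreated replicate 1 lies at 421 CPM, far above the treated libraries at 105 to 119 CPM, and replicates 2 and 3 just above them.

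AMPK, the kinase named in the series title, was tested with genes of related signalling. Of 30 genes around PHLPP, AKT, PI3K and AMPK 28 were tested, 2 rose, 18 fell and 8 were not called (median -0.63). Prkaa1, the AMPK alpha 1 subunit, was at 66.9, 69.1 and 66.7 and 59.8, 65.5 and 63.9 CPM, close together (-0.10 ± 0.09, adjusted p = 0.359), and the alpha 2 subunit gene Prkaa2 had no count in any library, which allows up to 3 counts in each. Camkk2, a kinase that activates AMPK, went from 77.2, 83.4 and 85.7 to 42.3, 40.6 and 42.7 CPM (-0.97 ± 0.09, adjusted p = 4.09e-06). Akt1 went from 425, 368 and 391 to 208, 221 and 165 CPM (-0.997 ± 0.12, adjusted p = 3.65e-05). Both genes were lower in every treated library. The PI3K subunit genes Pik3cd and Pik3cg fell 3.68-fold and 2.66-fold.

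Antioxidant genes under NRF2 rose in part. Of 24 tested genes of NRF2, glutathione and thioredoxin (25 listed) 9 rose, 4 fell and 11 were not called (median 0.40). Slc7a11, which imports cystine for glutathione, went from 104, 45.7 and 36.3 to 319, 344 and 351 CPM (2.45 ± 0.30, adjusted p = 3.29e-05, or 3.03 without untreated replicate 1). Prdx1, a peroxidase, went from 569.7, 481 and 448 to 1857, 1896 and 2324 CPM (2.02 ± 0.13, adjusted p = 1.73e-07). Sqstm1, the autophagy receptor p62, went from 1986, 2979 and 3199.7 to 20661, 20654 and 19806 CPM (2.90 ± 0.20, adjusted p = 3.42e-07). Treated and untreated libraries were apart in all 3. Catalase (Cat) rose 2.47-fold, Blvrb, a biliverdin reductase, 5.26-fold, and Keap1, the inhibitor of NRF2, fell 2.44-fold. Nfe2l2, the gene of NRF2 itself, was called lower too (-0.79, adjusted p = 0.000101).

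Iron and heme genes went the same way. All 16 were tested, with 9 higher and 2 lower (median 0.82). Hmox1, heme oxygenase 1, went from 154, 137 and 147 to 1012, 977 and 1079.7 CPM (2.81 ± 0.44, adjusted p = 0.000230). The ferritin chain genes Fth1 and Ftl1 rose 5.24-fold and 4.83-fold, reaching 29045, 28379.6 and 37608 CPM and 5869, 5389.9 and 6495 CPM. The iron transporter genes Slc11a1 and Slc11a2 rose 7.58-fold and 5.23-fold, and the metallothionein gene Mt2 2.91-fold.

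Genes of degradation and protein turnover rose by small steps in most members. Of 33 lysosome and V-ATPase genes 20 rose and 3 fell (median 0.73), and of 34 proteasome genes 24 rose and 1 fell (median 0.48). The mean log2 CPM of the lysosome list was 7.38, 7.35 and 7.33 untreated and 7.96, 8.01 and 8.10 after OxLDL, and that of the proteasome list was 7.16, 7.14 and 7.14 and 7.59, 7.60 and 7.76. Both lists were higher in every treated library. With library size alone 11 lysosome and 9 proteasome genes were higher. The cysteine protease gene Ctsl went from 988, 1123 and 1109 to 4001, 4262 and 5863 CPM (2.13 ± 0.16, adjusted p = 7.40e-07), Ctsz rose 2.89-fold, the pump subunit genes Atp6v1h and Atp6v1c1 2.61-fold and 2.50-fold, and Cd63, a lysosomal membrane protein, 2.85-fold. Among proteasome genes, Psmb6, of the catalytic core, went from 183, 164 and 174 to 505, 536 and 666 CPM (1.71 ± 0.12, adjusted p = 3.11e-07), and Psmd8 (2.55-fold), Psmd11 (2.22-fold), Psmc2 (2.19-fold), Psmc5 (2.06-fold) and Psmb7 (1.75-fold) rose as well. Psmb7 overlaps Nek6 on the other strand.

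Autophagy genes (23 of 24 tested) had 9 members higher and 5 lower (median 0.26). Atg12 (2.14-fold), Atg7 (1.60-fold), Gabarap (1.73-fold) and Gabarapl1 (1.62-fold), which act in conjugation and membrane growth, rose, and Ulk1 (2.44-fold) and Atg14 (1.83-fold), which act in its start, fell. Genes of ribosomal proteins also moved upward under TMM scaling, 25 of 45 cytosolic ones with none lower (median 0.52) and 18 of 33 mitochondrial ones with 2 lower (median 0.29). Without OxLDL replicate 3 the cytosolic count was 15 higher and 1 lower, and with library size alone it was 0 higher and 5 lower. The mitochondrial count with library size alone was 4 higher and 11 lower. As a share of all counts the cytosolic list overlapped between the groups. It held 1.74, 2.53 and 2.57% untreated and 2.09, 2.13 and 2.51% after OxLDL. Rpl19 is an example, at 71.9, 107 and 117 and 148, 154 and 207 CPM (0.79 ± 0.18, adjusted p = 0.00283), though ribosomal protein genes have many processed pseudogenes that can take their reads. Mrps10 (2.04-fold) and Mrpl27 (2.88-fold, overlapping Eme1 on the other strand) were among the mitochondrial ones that rose.

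Stress genes moved by member rather than by list. In the integrated stress response (27 of 29 tested) 10 rose and 5 fell (median 0.13), with 6 higher without OxLDL replicate 3. Atf3, a stress-induced transcription factor, went from 111, 36.8 and 35.9 to 329.9, 368 and 347 CPM (2.51 ± 0.41, adjusted p = 0.000313, or 3.25 without untreated replicate 1). Ddit3, which encodes CHOP, went from 85.1, 118 and 128 to 381, 379.8 and 492 CPM (1.92 ± 0.33, adjusted p = 0.000449), with Mars on the other strand. Both were higher in all treated libraries. Cebpb rose 4.10-fold (overlapping Tmem189) and Ppp1r15a, which ends the response, 3.51-fold, while Trib3 was not called (-0.45 ± 0.63, adjusted p = 0.559, or -0.46 and adjusted p = 0.0385 without sh-Luc untreated replicate 2) and the amino acid transporter gene Slc7a5 fell 2.69-fold. Of 22 genes of endoplasmic reticulum chaperones and the unfolded protein response 9 rose and 2 fell (median 0.31), with 5 higher without OxLDL replicate 3. The chaperone gene Hspa5 (BiP) rose 2.56-fold and Dnajb9 2.64-fold, while the sensor gene Atf6 fell 1.32-fold. Of 15 tested cytosolic heat shock protein genes (18 listed) 3 rose and 8 fell (median -0.34), among the latter Hspa8 (2.71-fold), Hspa1b (6.49-fold) and Hsp90ab1 (1.64-fold).

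Among p53 targets and apoptosis genes 9 of 27 rose and 3 fell (median -0.05), and without untreated replicate 1 the lower count was 7. It was 6 without sh-Luc untreated replicate 2 and 5 without OxLDL replicate 1. Fas, the death receptor, went from 1.19, 3.13 and 2.58 to 92.05, 93.1 and 124 CPM (5.45 ± 0.31, adjusted p = 6.52e-08). Gadd45b rose 32.9-fold and Gadd45a 10.2-fold, both stress sensors, and the survival gene Bcl2l1 and the death gene Bcl2l11 rose 2.71-fold and 1.92-fold. Cdkn1a, the p53 target that holds back the cell cycle, overlapped between the groups (436, 656 and 684 and 526, 511 and 490.1 CPM, -0.22 ± 0.16, adjusted p = 0.258). Without untreated replicate 1, its lowest untreated library, it was called lower (-0.41, adjusted p = 0.00949).

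Energy metabolism showed no common direction by list. Glycolysis and hypoxia genes (27 of 28 tested) had 6 higher and 9 lower, and genes of the citrate cycle and respiratory chain (all 36 tested) 8 and 8, both with a median of 0.01. Slc2a1, the glucose transporter GLUT1, went from 255, 222 and 202 to 787, 825 and 896 CPM (1.89 ± 0.23, adjusted p = 3.55e-05). Pdk1, the kinase that shuts pyruvate dehydrogenase, went from 67.2, 88.6 and 76.1 to 9.26, 11.8 and 9.77 CPM (-2.91 ± 0.17, adjusted p = 1.01e-07). The groups were apart in both genes, in opposite directions. Hexokinase 3 (Hk3) rose 2.54-fold and Pgk1 1.74-fold, while the phosphofructokinase genes Pfkl and Pfkm fell 3.83-fold and 2.23-fold, the latter overlapping Senp1 on the other strand. In the citrate cycle, the isocitrate dehydrogenase genes Idh1 and Idh2 fell 1.90-fold and 1.40-fold.

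Genes of macrophage identity stayed measurable and more of them rose than fell. Of 27 such genes 22 were tested, 12 rose, 3 fell and 7 were not called (median 0.82). Itgam, the integrin chain CD11b, went from 192, 359 and 333 to 1066, 1077 and 1186 CPM (1.91 ± 0.22, adjusted p = 2.31e-05), and Cd68 rose 2.66-fold, Mpeg1 3.05-fold, Fcgr2b 4.25-fold and the costimulatory gene Cd80 3.97-fold. Csf1r, the receptor of the growth factor M-CSF, went the other way, from 2034, 1072 and 1063 to 458, 488 and 456 CPM (-1.57 ± 0.30, adjusted p = 0.000931), as did the transcription factor gene Cebpa (2.90-fold). Lyz2 was at 7437, 6916 and 7109.9 and 8649, 8288 and 8827 CPM, higher in every treated library, and was not called (0.26 ± 0.11, adjusted p = 0.0614). It was called higher without untreated replicate 1 (0.28, adjusted p = 0.0391), without sh-Luc untreated replicate 2 (0.26, adjusted p = 0.0486) and in DESeq2 (0.28, adjusted p = 0.000281).

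Of 14 tested genes of foam cells and alternative activation (18 listed) 9 rose and 2 fell (median 1.26). Arg1, Chil3 and Retnla, markers of alternative activation, had 42, 0 and 0 counts over the 12 libraries and were not tested. Spp1, osteopontin, the most abundant RNA of every library, went from 10123, 18462 and 17048 to 52022, 53970.0 and 81699 CPM (2.04 ± 0.25, adjusted p = 3.66e-05). Ctsd rose 3.02-fold and Il4ra 3.34-fold, while Trem2, a lipid receptor of macrophages in plaques, went from 210.1, 252 and 231 to 73.5, 82.99 and 99.3 CPM (-1.44 ± 0.22, adjusted p = 0.000198). Matrix proteases and plasminogen genes (15 of 18 tested) had 7 higher and 3 lower (median 1.06). Mmp9 went from 13.8, 18.6 and 18.8 to 629.8, 689.6 and 736 CPM (5.32 ± 0.26, adjusted p = 1.86e-08) and Mmp13 from 0, 0.0999 and 0.0793 to 16.1, 15.9 and 14.7 CPM (7.79 ± 0.39, adjusted p = 2.49e-08), and Mmp14 from 1 count to 225, a ratio of 384 (68.2 to 15230). Plaur, the receptor of a plasminogen activator, rose 4.19-fold.

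Markers of other cell types moved with some of these genes, and their part in the results was not tested. RAW 264.7 cells are known to form osteoclasts. The 9 osteoclast markers summed to 108 to 185 CPM untreated and 699 to 818 CPM after OxLDL, with 2 of 7 tested higher and 1 lower, and Calcr was at 0. Most of the sum after OxLDL was Mmp9, while Nfatc1, the master regulator of osteoclasts, went from 80.6, 59.8 and 53.3 to 24.2, 23.8 and 21.5 CPM (-1.48 ± 0.34, adjusted p = 0.00273) and Ctsk was not called (0.97 ± 0.67, adjusted p = 0.232, or 0.97 and adjusted p = 0.00461 without sh-Luc untreated replicate 2). The 6 granulocyte markers summed to 0.183 to 0.366 CPM and then to 2.37 to 5.63 CPM, of which S100a8 made up nearly all (0.0458, 0.133 and 0 and 2.23, 2.72 and 5.48 CPM), while S100a9 and Ly6g were at 0. The 6 fibroblast markers summed to 1.10 to 2.02 CPM and then to 3.04 to 5.03 CPM, with 3 of 3 tested called higher and Lum at 0. These collagen calls were not stable, since those of Col1a1, Col1a2 and Col3a1 were each lost without some of the libraries. Col1a1 was not called without untreated replicate 1 (1.53, adjusted p = 0.0570) or without OxLDL replicate 3 (1.41, adjusted p = 0.115). Leaving out the latter also lost Col3a1 (1.34, adjusted p = 0.0770) and Col1a2 (1.06, adjusted p = 0.0976). In the wider list of fibroblast, epithelial and endothelial markers 4 of 6 tested genes were called higher, among them Acta2. Its call was kept without untreated replicate 1 (3.40, adjusted p = 5.04e-06) and without OxLDL replicate 3 (3.36, adjusted p = 2.30e-05). Endothelial markers summed to 1.55 to 2.43 and 2.66 to 3.11 CPM, with 0 of 2 tested called.

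The same treatment of the sh-Luc line called 1242 genes (9.47%), 6.38% of all tested as higher and 3.09% as lower, and the response of the line labelled sh-PHLPP1 differed from it in 3231 genes (24.6%), tested as the interaction, the difference between the 2 responses. Of these, 1451 were higher (11.1%) and 1780 lower (13.6%) in the line labelled sh-PHLPP1. The responses share no library, though the spread was pooled over all 4 groups. Of the 1242 sh-Luc calls 983 were also called in the same direction in the line labelled sh-PHLPP1, 37 in the opposite direction and 222 not called, so that the shared calls were 79.1% of the sh-Luc calls and 13.7% of the 7169. Across all genes the log2 fold changes correlated at 0.599 (Pearson), a description over genes, which are not independent. Of 3033 genes called in both the interaction and the response of the line labelled sh-PHLPP1, 2998 had the larger change, in size, in that line. The choice of these genes favours that outcome, since both calls use the change in that line. Of the sh-Luc calls, 500 were called in the interaction. Without the untreated libraries that stood apart in each line (replicate 1 labelled sh-PHLPP1 and replicate 2 of sh-Luc) the interaction called 5319 genes, and without sh-Luc OxLDL replicate 3 it called 2114.

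**Figure D5:**
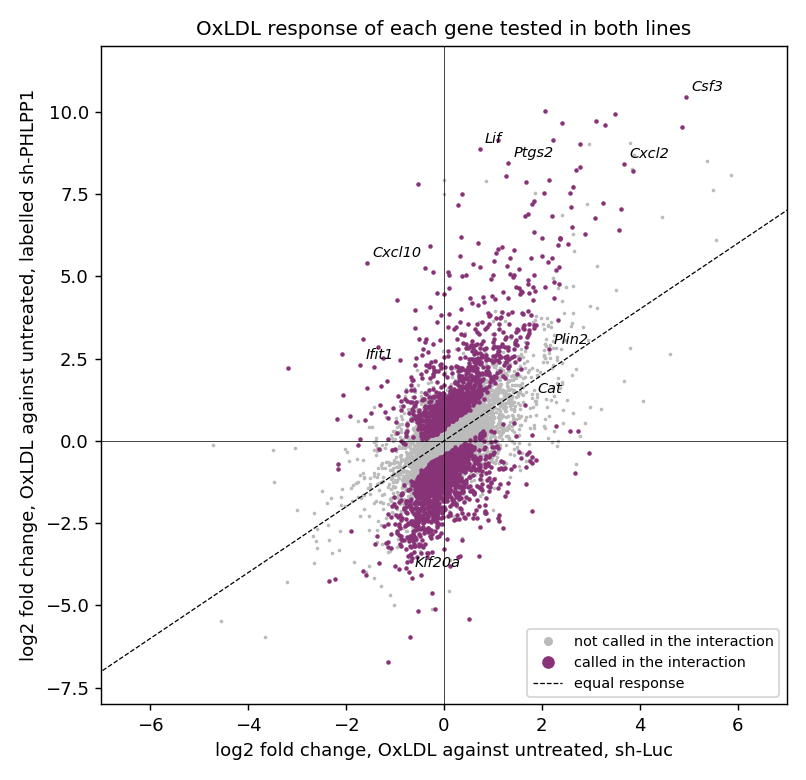
Log2 fold change after OxLDL of each of the 13121 genes tested in sh-Luc (horizontal) and in the line labelled sh-PHLPP1 (vertical), with genes called in the interaction in purple, the others in grey, and a dashed line where the responses are equal. Csf3, Lif, Ptgs2, Cxcl2 and Cxcl10 lie far above the line, Kif20a below it, and Plin2 and Cat near it, at 2.79 against 2.14 and 1.30 against 1.79.

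The lists differed in how far the 2 responses parted. For the chemokine list the interaction was higher in 14 of 17 and lower in 0, for cytokines in 17 and 1 of 24, and for the NF-kB list in 20 and 0 of 31. Csf3 rose in sh-Luc as well, from 10.1, 25.1 and 12.01 to 455, 536 and 462 CPM, but less (interaction 5.51 ± 0.43, adjusted p = 6.59e-06). Cxcl2 went from 119, 162 and 147 to 1678, 2057 and 1763 CPM there (interaction 4.74 ± 0.36, adjusted p = 6.30e-06). Both lines thus raised these genes, and the treated libraries labelled sh-PHLPP1 were the highest. Il1b, in contrast, was at 0.709, 0.644 and 0.716 and 0.790, 1.03 and 0.810 CPM in sh-Luc, with no call (0.36 ± 0.33, adjusted p = 0.525; interaction 7.15 ± 0.50, adjusted p = 2.46e-06), and Lif was not called either (0.73 ± 0.33, adjusted p = 0.193; interaction 8.15 ± 0.52, adjusted p = 1.43e-06).

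Ifit1 and Cxcl10 moved in opposite directions in the 2 lines. Ifit1 fell in sh-Luc (-1.72 ± 0.19, adjusted p = 0.000121) and rose in the line labelled sh-PHLPP1 (interaction 4.03 ± 0.26, adjusted p = 1.60e-06), and Cxcl10 did likewise (-1.57 ± 0.40, adjusted p = 0.0285; interaction 6.98 ± 0.60, adjusted p = 1.38e-05). For the interferon list as a whole 27 of 35 fell and none rose in sh-Luc (median -1.14), against 19 lower and 5 higher here, and the interaction was higher in 13 and lower in 1. The mean log2 CPM of this list in sh-Luc was 6.23, 5.31 and 6.29 untreated and 4.73, 4.68 and 4.80 after OxLDL. Untreated sh-Luc replicate 2 was thus below the others of its group, and still above the treated libraries. Pirb, an inhibitory receptor, rose in sh-Luc (1.12 ± 0.30, adjusted p = 0.0340) and fell here (-2.26 ± 0.32, adjusted p = 0.000106; interaction -3.39 ± 0.44, adjusted p = 0.000309), with the limit that it has close relatives in the genome.

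The cell division lists had no call in sh-Luc (0 of 32 mitosis and 0 of 33 replication genes lower, none higher), with medians of -0.50 and -0.34, and the interaction was lower in 18 and 12. The mean log2 CPM of both lists was still lower in every treated sh-Luc library. It went from 6.76, 6.81 and 6.68 to 6.33, 6.22 and 6.34 for mitosis and from 6.49, 6.74 and 6.47 to 6.26, 6.25 and 6.28 for replication. The spread was pooled with the untreated libraries labelled sh-PHLPP1, which differed among themselves in these lists. Without untreated replicate 1 of that line, sh-Luc calls over all genes numbered 3086. Proteasome genes had 2 higher in sh-Luc, and the interaction was higher in 22 of 34, and for cytosolic ribosomal proteins in 13 of 45. In the lipid lists the interaction was called for a minority: 6 higher and 1 lower of 15 uptake genes, 0 and 3 of 26 in cholesterol synthesis, and 4 and 3 of 23 in fatty acid synthesis. Cd36 (2.60 ± 0.35, adjusted p = 0.000365), Msr1 (1.84 ± 0.21, adjusted p = 0.000131) and Fabp4 (4.53 ± 0.42, adjusted p = 2.66e-05) rose more in the line labelled sh-PHLPP1, and Fasn (-1.60 ± 0.42, adjusted p = 0.0170) and Scd2 (-1.77 ± 0.44, adjusted p = 0.0139) fell more. A larger rise is not a higher end level. The mean log2 CPM of the uptake list was 5.77, 5.37 and 5.38 untreated in this line, against 6.28, 6.70 and 6.34 in sh-Luc. After OxLDL it was 6.95, 7.02 and 7.06 against 6.85, 7.04 and 6.99, so the list started lower here and ended near the sh-Luc level. For Abca1 (-0.64 ± 0.52, adjusted p = 0.385), Acaca (-0.24 ± 0.21, adjusted p = 0.417) and Hmox1 (0.51 ± 0.59, adjusted p = 0.547) no difference between the lines was called, and differences of several times these errors could have gone undetected. The antioxidant list held more calls in sh-Luc, with 13 higher and 1 lower (median 0.59) against 9 and 4 here, and the interaction was higher in 3 and lower in 6 of 24.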

How the data were processed

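RNA of 12 bulk libraries was measured, 3 in each of 4 groups set by the labels. The authors deposited raw read counts, whole numbers for 39179 Ensembl genes, and every column of the table was used. The submitters' processing notes name FastQC, Trimmomatic, HTSeq, DESeq2 and build GRCm38 without versions. Which aligner, strand setting and annotation were used is not given in the sources used here. Per the labels' protocols, libraries were made from total RNA with a commercial kit and amplified by PCR. The raw reads are lost, per the series' design text. Unnamed rows (1633 without a symbol) took 0.397 to 0.505% of all counts, and 37 mitochondrially encoded rows held 0 counts.

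The tests ran in edgeR 4.0.16 under R 4.3.3. After filterByExpr 13121 genes were left, scaled with TMM factors (1.12 to 1.14 untreated, 0.778 to 0.874 after OxLDL in the line labelled sh-PHLPP1). The quasi-likelihood test was fitted to 4 group means over all 12 libraries, 2-sided, with Benjamini-Hochberg adjustment over all genes and calls at an adjusted p under 0.05. The common biological coefficient of variation was 0.171. The standard error was taken as the log2 fold change over the root of its F statistic. The fit was tested on simulated data in which few genes changed, about as many up as down. That test cannot tell how the scaling performs where a large part of the genes change. Totals were 16020186 to 27422114 counts, and 3 counts, the limit that a count of 0 allows, were 0.0999 to 0.222 CPM. Counting intervals and limits cover counting error only.

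Replicate numbers stand for passages in the labels. Deviations from the group means of same-numbered libraries correlated at 0.02, -0.21 and 0.11 in the line labelled sh-PHLPP1, so the numbers were not used as pairs.

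The comparison, its 34 gene lists (854 genes, 772 tested, 80 not tested for low counts, 2 not analysed here) and its key genes were chosen with earlier results of these data known. Named genes were the 15 highest and 15 lowest log2 fold changes among called genes whose groups did not overlap and whose average log2 CPM was 2 or more, the 10 in each direction of the interaction, the 6 members of each list with the smallest p, and 41 key genes. Predicted genes were left out, and some genes named by these rules are not reported here. Lists are described by counts and medians, with no set test. Gene positions and exon overlaps are from GENCODE M21. Alternatives were DESeq2 1.42.0, its size factors in edgeR, library size alone, no filter, a replicate block, each library left out, both untreated libraries that stand apart left out, and a fit to the 6 libraries of a line.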

Additional observations from a re-analysis of the deposited data

Results flagged for a closer look

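The responses of the 2 lines to OxLDL differed, by the interaction term of the fit (edgeR, adjusted p under 0.05), in 3231 genes, 1451 of them higher and 1780 lower in the line labelled sh-PHLPP1. By the rule for the largest differences, the interaction was highest for Lif, with a log2 value of 8.15, followed by Serpinb2 (8.04), Marcks (7.95), Lcn2 (7.27), Il1b (7.15), Ptgs2 (7.13), Cxcl10 (6.98), Il6 (6.90), Ccl5 (6.88) and Urah (6.60). It was lowest for Ankle1 (-3.53), Pirb (-3.39), Kif20a (-3.29), Cenpf (-3.19), Ccne2 (-3.11), Esco2 (-3.07), Fbxo5 (-3.06), Aspm (-2.99), Tacr1 (-2.98) and Trim65 (-2.97). Kif20a, Cenpf, Ccne2, Esco2, Fbxo5 and Aspm act in the cell division cycle. Esco2, which joins sister chromatids, went from 26.1, 8.26 and 7.25 to 1.15, 1.48 and 1.26 CPM in the line labelled sh-PHLPP1, and Fbxo5, an inhibitor of the anaphase-promoting complex, from 45.9, 17.01 and 15.8 to 2.64, 2.25 and 2.52 CPM, both with untreated replicate 1 the highest. Without that library the OxLDL response there was -2.58 for Esco2 and -2.74 for Fbxo5, against -3.40 and -3.40 with it. The response was also smaller in size without it for Ankle1 (-2.69), Kif20a (-2.64), Cenpf (-2.60) and Aspm (-2.33). It changed little for Ccne2 (-3.22) and Trim65 (-3.33) and was larger for Pirb (-2.59) and Tacr1 (-4.04). The order of the interaction values without that library is not given here. Of the other 210 genes named by the rules and reported, 140 were called in the interaction, against 24.6% of all genes tested. Many of them were named for their response in the line labelled sh-PHLPP1, which is part of the interaction, so a higher share was favoured by the choice. Each line is 1 stable line, so the difference between the hairpins and any other difference between the lines cannot be told apart.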

How the results depend on the processing

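The sh-PHLPP1 OxLDL response called 7169 genes in the fit given and 5765 to 8297 under the alternatives. Library size alone changed the split to 1572 higher and 6381 lower, as its median over all genes was lower. For the sh-Luc response DESeq2 called 1948 genes, leaving out both untreated libraries that stand apart 3528 and the fit to its own 6 libraries 2944, while leaving out 1 library at a time gave 564 to 3086. For the interaction, leaving out both libraries gave 5319 called, 2228 higher and 3091 lower, and library size alone gave 569 higher and 4214 lower. Leaving out 1 library at a time gave 2114 to 4496 called, 886 to 1899 higher and 1217 to 2597 lower. The causes were not tested.

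Named genes that changed sign, all with library size alone, were Plin3 (-0.13), Suclg1 (-0.071) and Sdhb (-0.010). Calls of Srebf1, Plin3, Col1a1, Col1a2 and Col3a1 were lost in several alternatives, those of Pnpla2, Cdkn1a, Lyz2, Trib3 and Ctsk were gained in some, and library size alone lost those of small rises, such as Npc2, Lpcat3, Abhd5 and Rpl19. Replicate numbers did not pair the libraries, so the replicate block counts only as a check: it called 6984 genes in the sh-PHLPP1 response, 1115 in sh-Luc and 2965 in the interaction. Depth limits genes near 3 counts per library, such as Cxcl3 and Ccl7 untreated.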

Other observations

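Called genes without any count in the 3 untreated libraries labelled sh-PHLPP1 numbered 15, a set chosen after the values were seen. Their rise can be given only as a lower bound, against 3 counts in each untreated library. Gstp3, a glutathione transferase, was at least 37.6-fold higher after OxLDL, from 0 to 197 counts over the 3 libraries. Members of the interleukin 1 family were among them: Il1f6 at least 25.3-fold (133 counts) and Il1f9 at least 20.03-fold higher (108 counts). Il12b, which encodes a chain of interleukin 12, was at least 11.9-fold and the transcription factor gene Batf at least 11.6-fold higher. AA467197 was at least 26.1-fold and Csta3, of the cystatin family and with close relatives in the genome, at least 10.4-fold higher. Trem1 had 3 counts after OxLDL, too few for a fold.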
